A study of Mus musculus with 22 samples.

Results

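The genes described here are 48 genes of mitosis and the spindle, named one by one in a list of textbook components of cell division, out of 55401 gene identifiers in the count table. All 48 had counts and all 48 passed the filter on low counts in both sets of cells, so none was left out, and the list was not chosen by any threshold on these data. The list was, however, drawn up with earlier results of these data known. By role, 8 drive entry into mitosis, 8 belong to the spindle checkpoint and to the onset of anaphase, 4 to the chromosomal passenger complex, 7 to the kinetochore, 9 to the spindle, 4 to cytokinesis and 6 to chromosome structure, and 2 are transcription factors of the G2/M programme.

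A cell enters mitosis when cyclin B and CDK1 become active, builds a spindle that binds chromosomes at their kinetochores, and separates the sister chromatids once the anaphase-promoting complex has been switched on by CDC20. The genes for these proteins are transcribed together late in the cell cycle, by the MuvB complex with B-MYB and FOXM1, and are repressed together in cells that leave the cycle, by the DREAM complex of p130 or p107, E2F4 and MuvB. Their mRNAs therefore serve as a common read-out of the share of cycling cells in fibroblast cultures. In bulk RNA, fewer dividing cells and less RNA of these genes in each dividing cell cannot be told apart.

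RNA was sequenced from mouse embryonic fibroblasts (MEFs), primary cells grown from embryos after removal of the head and viscera, which stop dividing after serial passage in atmospheric oxygen. There were 22 libraries in 6 groups and 2 sets. The S6K1 set held 4 libraries of S6K1 WT MEFs at passage 3 (early WT), 4 of S6K1 WT MEFs at passage 8 (late WT) and 3 of S6K1 KO MEFs at passage 8 (KO). The S6K1/S6K2 set held 4 libraries of WT MEFs at passage 3, 4 of WT MEFs at passage 8 and 3 of S6K1/S6K2 double knockout MEFs at passage 8 (DKO). S6K1 and S6K2 are the ribosomal S6 kinases encoded by Rps6kb1 and Rps6kb2, which act downstream of mTORC1. Both deletions are germline, and neither set held KO or DKO MEFs at passage 3, so an effect of genotype could be compared only late. WT and S6K1 KO embryos came from mothers heterozygous for S6K1, whereas DKO embryos came from crosses that already lacked S6K2 and their WT controls from WT mothers of an earlier breeding stage, so for the DKO genotype and litter cannot be told apart. The study describes MEF replicates as derived from different embryos, whereas the labels tie no library to an embryo or a mother, and p-values measure only the spread between these libraries.

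Values are raw read counts per gene as deposited, shown as CPM (counts scaled to a common library total) after TMM scaling within a set, and the libraries of a group are always given in the order SG02, SG03, SG04, SG05 (early WT), SG19, SG21, SG22, SG23 (late WT) and SG24, SG25, SG27 (KO) for the S6K1 set, and SG46, SG47, SG48, SG50, then SG57, SG58, SG59, SG60, then SG61, SG62, SG64 (DKO) for the S6K1/S6K2 set. The targeted genes followed the labels. Rps6kb1 was at 55.6, 73.6, 55.1 and 64.7 CPM in late WT and 22.3, 22.6 and 13.9 CPM in KO MEFs, and at 78.9, 68.4, 66.2 and 90.8 CPM in late WT and 23.3, 21 and 28.9 CPM in DKO MEFs. Rps6kb2 was at 17, 11.5, 11.6 and 14.3 CPM in late WT and 0.600, 0.497 and 1.39 CPM in DKO MEFs. Libraries held 10742454 to 17314832 counts on genes, of which 7270 to 38987 fell on the 48 genes, and the lowest count of any of them in any library was 7. Of 19 macrophage markers, 19 rose with passage in the S6K1 set and 18 in the S6K1/S6K2 set, beside 6.96% and 8.28% of all genes. In DKO against late WT MEFs 17 were lower, beside 3.95% of all genes. In KO against late WT MEFs 0 passed, beside 0.0354% of all genes lower. At an unadjusted p under 0.05, 13 were lower, beside 804 of all 14132 genes. Macrophage markers summed to 497 to 1106 CPM in early WT, 5331 to 11097 in late WT and 3549 to 4843 in KO MEFs. In the groups of the S6K1/S6K2 set the sums were 613 to 2044 CPM, 7769 to 13280 CPM and 943 to 3514 CPM. No macrophage marker was at 0 in all libraries of a group. Sums of 13 fibroblast markers were 28942 to 36441 CPM in early WT and 19579 to 26343 CPM in late WT of the S6K1 set. In KO MEFs they were 24124 to 25914 CPM. In the S6K1/S6K2 set they were 31041 to 40701 CPM, 20778 to 28081 CPM and 26024 to 29180 CPM. These fibroblast sums fell with passage without overlap in both sets, but the single markers were split. In the S6K1 set 8 of the 13 had a negative and 5 a positive log2 fold change with passage. In the S6K1/S6K2 set these numbers were 9 and 4. Those that passed as lower were 4 (30.8%, beside 5.97% of all genes) and 2 (15.4%, beside 4.89%). The part of other cell types and of the lower fibroblast sum in the differences below was not tested. Of the 48 genes, 20 overlap another RefSeq gene and 3 (Ccnb1, Ccnb2 and Kif4) have a named pseudogene, and since no source says how strand was used in counting, their counts are less certain.

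Inside the early WT group of the S6K1 set, SG03 and SG05 stood apart from SG02 and SG04. Both lay above both others in 15 of the 48 genes and below them in 19, beside 29.8% and 32.7% of all 14132 genes tested, whereas the other ways to pair these 4 libraries gave at most 10.6% in either direction. The widest gaps among the 48 genes were Spc24, at 11.6, 29.6, 12 and 30.05 CPM, and Pttg1, at 48.7, 117, 44.9 and 103 CPM, with SG03 and SG05 high, and Kif20a, at 74.5, 36.6, 73.9 and 25.8 CPM, and Nuf2, at 25.6, 13.1, 31.1 and 10.2 CPM, with them low. The summed level of 4 Y-linked genes was 0.146 and 0.868 CPM in SG03 and SG05 and 202 and 237 CPM in SG02 and SG04. Of the late WT libraries of the set only SG22 had such counts (239 CPM), whereas all 3 KO libraries did (204 to 287 CPM), so the groups of the S6K1 set also differed in the sex of the embryos. Of the S6K1/S6K2 set 2 of 4 early WT, 3 of 4 late WT and 1 of 3 DKO libraries had them, and the early WT libraries SG46 and SG47, one without and one with, were the highest of the 11 libraries in 33 and 9 of the 48 genes. Counts of called genes in comparisons of the S6K1 set that use its early WT libraries are given below with and without SG03 and SG05, an alternative added after the data were seen.

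**Figure D1:**
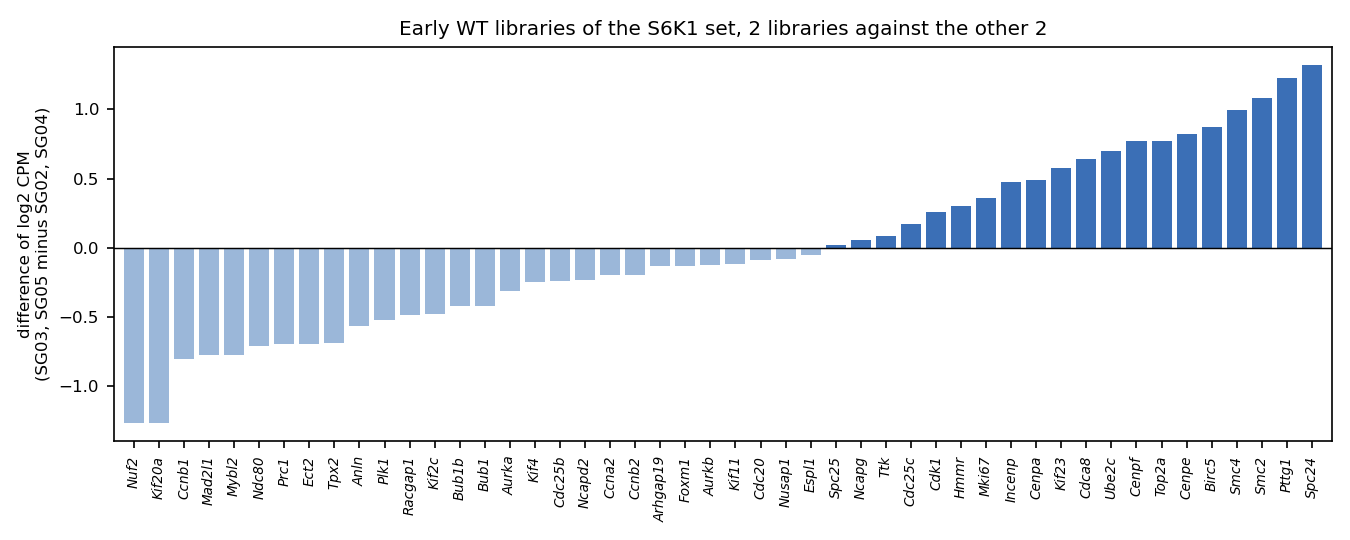
Difference in log2 CPM between the mean of SG03 and SG05 and the mean of SG02 and SG04, all early WT libraries of the S6K1 set, for each of the 48 genes in order of size. The bars run from −1.27 for Nuf2 to 1.32 for Spc24, so libraries of 1 group differed in both directions among genes of 1 programme.

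Promoters of the genes were read from a RefSeq table (GRCm38.p6, 250 bases before each transcription start), which matched 39 of the 48 genes with 41 entries. Ccna2, Cdc25c, Aurkb, Incenp, Spc24, Kif20a, Tpx2, Smc4 and Foxm1 were not matched. The letters of 2 elements known from cell-cycle promoters were searched on both strands: CCAAT, the box bound by NF-Y, and TTTGAA, the core of the cell-cycle homology region (CHR) bound by MuvB. The 2 motifs cannot overlap by more than 1 base. A CCAAT was found in 32 of the 41 promoters (78%) against 33.8% of all 32851 promoters, a TTTGAA in 16 (39%) against 16% and both in 15 (36.6%) against 5.55%. These are matches of letters and not shown sites. The sequences of 6 promoters are given 5′ to 3′ on the gene's strand, with every match in capitals (ATTGG and TTCAAA are matches on the other strand), because they cover the patterns of expression described below: Ccnb1, Ccnb2, Kif11 and Birc5, which fell with passage in the S6K1/S6K2 set, Cdk1, which passed the test in DKO against early WT MEFs alone, and Arhgap19, which rose with passage.
Ccnb1, chr13:100786487-100786736, minus strand: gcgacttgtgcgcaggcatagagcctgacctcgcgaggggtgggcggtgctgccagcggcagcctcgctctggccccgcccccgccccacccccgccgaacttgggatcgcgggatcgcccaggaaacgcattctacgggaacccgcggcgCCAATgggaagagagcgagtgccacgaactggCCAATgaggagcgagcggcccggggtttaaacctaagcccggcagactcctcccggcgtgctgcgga
Ccnb2, chr9:70421555-70421804, minus strand: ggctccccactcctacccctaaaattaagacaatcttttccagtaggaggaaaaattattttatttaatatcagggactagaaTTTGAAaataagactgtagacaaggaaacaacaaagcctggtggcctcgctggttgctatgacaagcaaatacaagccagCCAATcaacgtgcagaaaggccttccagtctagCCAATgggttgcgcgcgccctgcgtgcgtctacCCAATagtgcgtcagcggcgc
Cdk1, chr10:69352913-69353162, minus strand: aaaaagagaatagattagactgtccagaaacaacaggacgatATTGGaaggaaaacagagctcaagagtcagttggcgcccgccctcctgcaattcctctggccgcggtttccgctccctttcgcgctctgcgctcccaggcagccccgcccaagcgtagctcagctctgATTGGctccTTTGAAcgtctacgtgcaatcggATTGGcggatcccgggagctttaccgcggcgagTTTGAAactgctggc
Kif11, chr19:37376132-37376381, plus strand: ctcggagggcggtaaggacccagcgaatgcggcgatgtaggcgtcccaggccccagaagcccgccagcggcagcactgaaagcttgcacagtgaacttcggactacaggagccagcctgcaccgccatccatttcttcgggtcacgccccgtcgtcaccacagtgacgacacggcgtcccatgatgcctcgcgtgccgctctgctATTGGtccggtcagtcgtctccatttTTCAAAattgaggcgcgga
Birc5, chr11:117848987-117849236, plus strand: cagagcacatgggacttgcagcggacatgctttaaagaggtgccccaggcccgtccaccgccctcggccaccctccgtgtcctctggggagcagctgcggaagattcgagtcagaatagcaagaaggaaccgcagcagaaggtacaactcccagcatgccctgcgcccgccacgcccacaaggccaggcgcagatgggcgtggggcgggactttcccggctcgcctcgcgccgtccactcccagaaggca
Arhgap19, chr19:41802085-41802334, minus strand: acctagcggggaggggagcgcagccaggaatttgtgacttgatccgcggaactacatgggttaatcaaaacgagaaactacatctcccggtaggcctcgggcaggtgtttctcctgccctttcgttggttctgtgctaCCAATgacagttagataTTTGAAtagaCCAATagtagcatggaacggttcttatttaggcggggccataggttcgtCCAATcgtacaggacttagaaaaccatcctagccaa
Arhgap19, whose mRNA rose with passage, holds 3 CCAAT and 1 TTTGAA, as does Ccnb2. Birc5 holds neither within this window and fell with passage, as did Ccnb1, which holds CCAAT alone.

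As a share of all counts, the 48 genes together made up 0.231% ± 0.0210 (SD, n = 4) in early WT, 0.166% ± 0.0460 (n = 4) in late WT and 0.127% ± 0.0370 (n = 3) in KO MEFs of the S6K1 set. In the S6K1/S6K2 set the share was 0.170% ± 0.0373 (n = 4), 0.106% ± 0.00796 (n = 4) and 0.0674% ± 0.00492 (n = 3). A score per library, the mean over the 48 genes of log2 CPM centred on each gene's mean in the set, gives each gene the same weight. It was 0.30, 0.43, 0.47 and 0.31 in early WT MEFs of the S6K1 set, 0.02, −0.39, −0.30 and 0.48 in late WT and −0.06, −0.29 and −0.96 in KO MEFs. One late WT library, SG23, lay above all 4 early WT libraries, and SG27 of the KO lay far below the other 2 and held the lowest value of the 11 libraries in 42 of the 48 genes. In the S6K1/S6K2 set the score was 0.89, 0.80, 0.56 and 0.25 in early WT, −0.06, 0.01, −0.17 and 0.15 in late WT and −0.92, −0.86 and −0.66 in DKO MEFs, and no 2 of these groups overlapped. The difference of the mean score was −0.64 for passage and −0.80 from late WT to DKO MEFs, beside SDs of 0.29, 0.13 and 0.13 within the 3 groups. In the S6K1 set it was −0.43 for passage and −0.39 from late WT to KO MEFs, beside SDs of 0.09, 0.39 and 0.46, and the latter was −0.13 without SG27, −0.21 without SG23 and −0.59 without SG24.

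**Figure D2:**
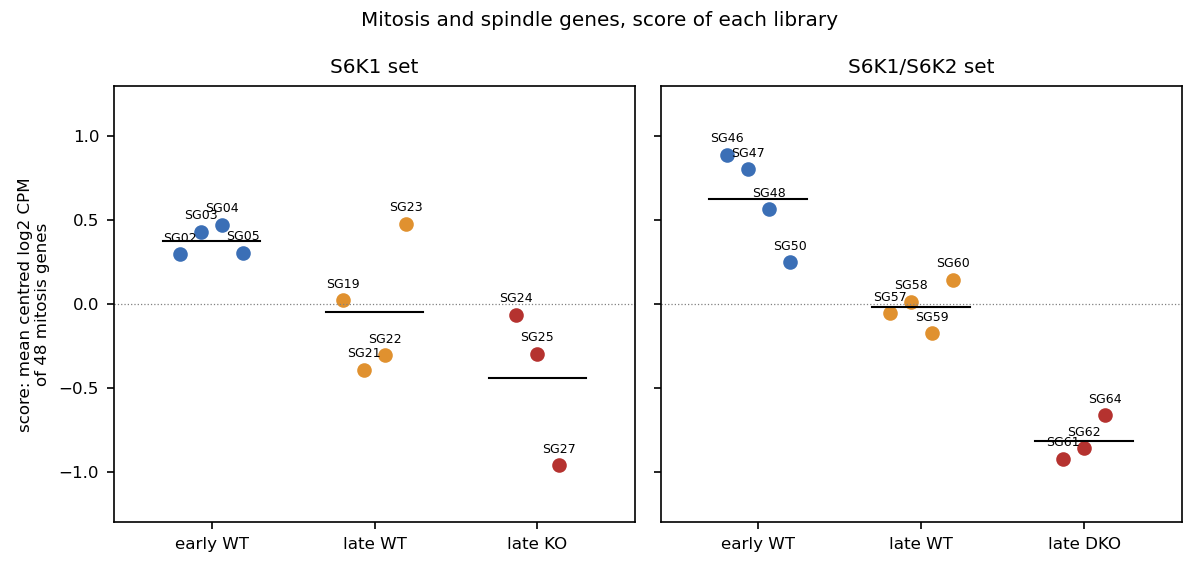
Score of each library, the mean centred log2 CPM of the 48 genes (y axis), by group (x axis) in the 2 sets, with a bar at the group mean. The 3 groups of the S6K1/S6K2 set form 3 separate levels, from 0.89 to −0.92, whereas late WT and KO MEFs of the S6K1 set overlap each other and SG23 reaches the early WT level.

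Whether WT MEFs lost these mRNAs between passage 3 and passage 8 was asked in each set. In the S6K1/S6K2 set 28 of the 48 genes fell and 1, Arhgap19, rose (edgeR quasi-likelihood F test, Benjamini-Hochberg adjusted p under 0.05 over 14365 genes), beside 4.89% of all genes lower and 8.28% higher. Their median log2 fold change was −0.73, against 0.01 over all genes tested, and 45 of 48 values were negative. All late WT libraries lay below all early WT libraries in 25 of the 48 genes, beside 8.5% of all genes. The 2 largest falls were those of Anln, an actin-binding scaffold of the contractile ring (−1.15 ± 0.20, edgeR adjusted p = 0.00355), and Kif11, the motor that pushes spindle poles apart (−1.13 ± 0.26, edgeR adjusted p = 0.0141). The other genes that fell were Ccna2, Ccnb1, Ccnb2, Cdc25c, Plk1, Aurka, Bub1b, Ttk, Cdc20, Espl1, Birc5, Cdca8, Cenpa, Cenpe, Kif20a, Kif2c, Kif4, Tpx2, Prc1, Hmmr, Racgap1, Top2a, Mki67, Ncapg, Ncapd2 and Foxm1. Without SG46 the count of falls was 12, without SG47 14 and without SG59 17.

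In the S6K1 set passage lowered 5 of the 48 genes, Cenpe, Cenpf, Hmmr, Smc2 and Smc4, and raised Arhgap19, beside 5.97% of all 14132 genes lower and 6.96% higher. The median was −0.45, against −0.04 over all genes, with 44 of 48 values negative, and 4 genes did not overlap between groups, beside 9.18% of all genes. The largest falls among those that passed were those of Smc2, a condensin subunit (−1.13 ± 0.28, edgeR adjusted p = 0.0197), and Cenpf, a kinetochore protein (−1.11 ± 0.26, edgeR adjusted p = 0.0159). All 5 are among the 15 genes in which SG03 and SG05 both stood above SG02 and SG04. Without SG03 and SG05 together 0 of the 48 passed as lower. The count was 2 without SG03, SG05 or SG19, 1 without SG21 or SG22, 3 without SG24 or SG25 and 12 without SG23. It was 13 with a covariate for the Y-linked level and 2 in a fit of early WT and late WT MEFs alone. For this set the number of falls thus hung on which libraries were counted, while the rise of Arhgap19 passed in each of these fits.

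Whether loss of the kinases changed the genes further was asked at passage 8. DKO MEFs had lower levels than late WT MEFs in 18 of the 48 genes and higher levels in 0 (0 also at an unadjusted p under 0.05 and by DESeq2), beside 3.95% of all genes lower and 0.821% higher. The median was −0.81 against −0.01 over all genes, 47 values were negative, and in 38 genes every DKO library lay below every late WT library, beside 10.6% of all genes. The largest falls were those of Arhgap19 (−2.16 ± 0.23, edgeR adjusted p = 0.00135) and Bub1, a kinase of the spindle checkpoint (−1.13 ± 0.25, edgeR adjusted p = 0.0239). The other genes that passed were Ccna2, Ccnb1, Cdc25c, Aurka, Ttk, Cdc20, Ube2c, Aurkb, Incenp, Birc5, Cdca8, Cenpa, Nusap1, Top2a, Mki67 and Ncapg. The count was 29 by DESeq2, 9 in a fit of all 6 groups, 8 without SG58 or SG61 and 2 without SG62 or SG64.

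S6K1 KO MEFs did not differ from late WT MEFs in any of the 48 genes past the threshold by edgeR, beside 0.0354% of all genes lower and 0.00708% higher. At an unadjusted p under 0.05, 7 were lower (Cdk1, Cdc25b, Cdc25c, Espl1, Birc5, Cenpa and Arhgap19) and 0 higher. Of all 14132 genes, 804 were lower and 695 higher at that threshold. DESeq2 called 1 of the 48, Arhgap19, lower. The median was −0.34 against −0.01 over all genes, with 46 of 48 values negative, and 4 genes did not overlap between the groups, beside 6.28% of all genes. The median standard error of these log2 fold changes was 0.30, against 0.22 for DKO against late WT MEFs. With 3 KO libraries and this spread, a missed threshold does not show that the levels were alike, and the KO libraries all came from male embryos whereas 3 of the 4 late WT libraries did not.

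Set against early WT MEFs, the late mutant cells showed the sum of both steps, and these comparisons share libraries with those above. In DKO MEFs 45 of the 48 genes were lower and 1, Pttg1, was higher, beside 8.92% of all genes lower and 9.34% higher, and in 47 genes no DKO library reached the lowest early WT library, beside 15.7% of all genes. The median was −1.49 against 0.00 over all genes. The 2 largest falls were those of the condensin subunit gene Ncapg (−2.22 ± 0.26, edgeR adjusted p = 0.000462), which means a level 4.64-fold lower, and the checkpoint gene Bub1b (−2.16 ± 0.31, edgeR adjusted p = 0.00125). The 2 genes that did not pass were Spc25 and Arhgap19. In S6K1 KO MEFs 13 of the 48 genes were lower than in early WT MEFs and 0 higher (0 at an unadjusted p under 0.05 and by DESeq2), beside 5.24% of all genes lower and 5.93% higher. The median was −0.77 against −0.02, 29 genes did not overlap beside 13.3% of all genes, and the largest falls were those of Smc2 (−1.63 ± 0.31, edgeR adjusted p = 0.00846) and Cenpe (−1.59 ± 0.33, edgeR adjusted p = 0.0113). The others were Cdc25b, Cdc25c, Espl1, Cdca8, Cenpa, Cenpf, Kif23, Hmmr, Top2a, Mki67 and Smc4. That count was 23 by DESeq2, 24 in a fit of all 6 groups, 7 without SG03 or SG05, 5 without SG25, 3 without SG27 and 3 without SG03 and SG05 together (Cdc25b, Cdc25c and Smc2).

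**Figure D3:**
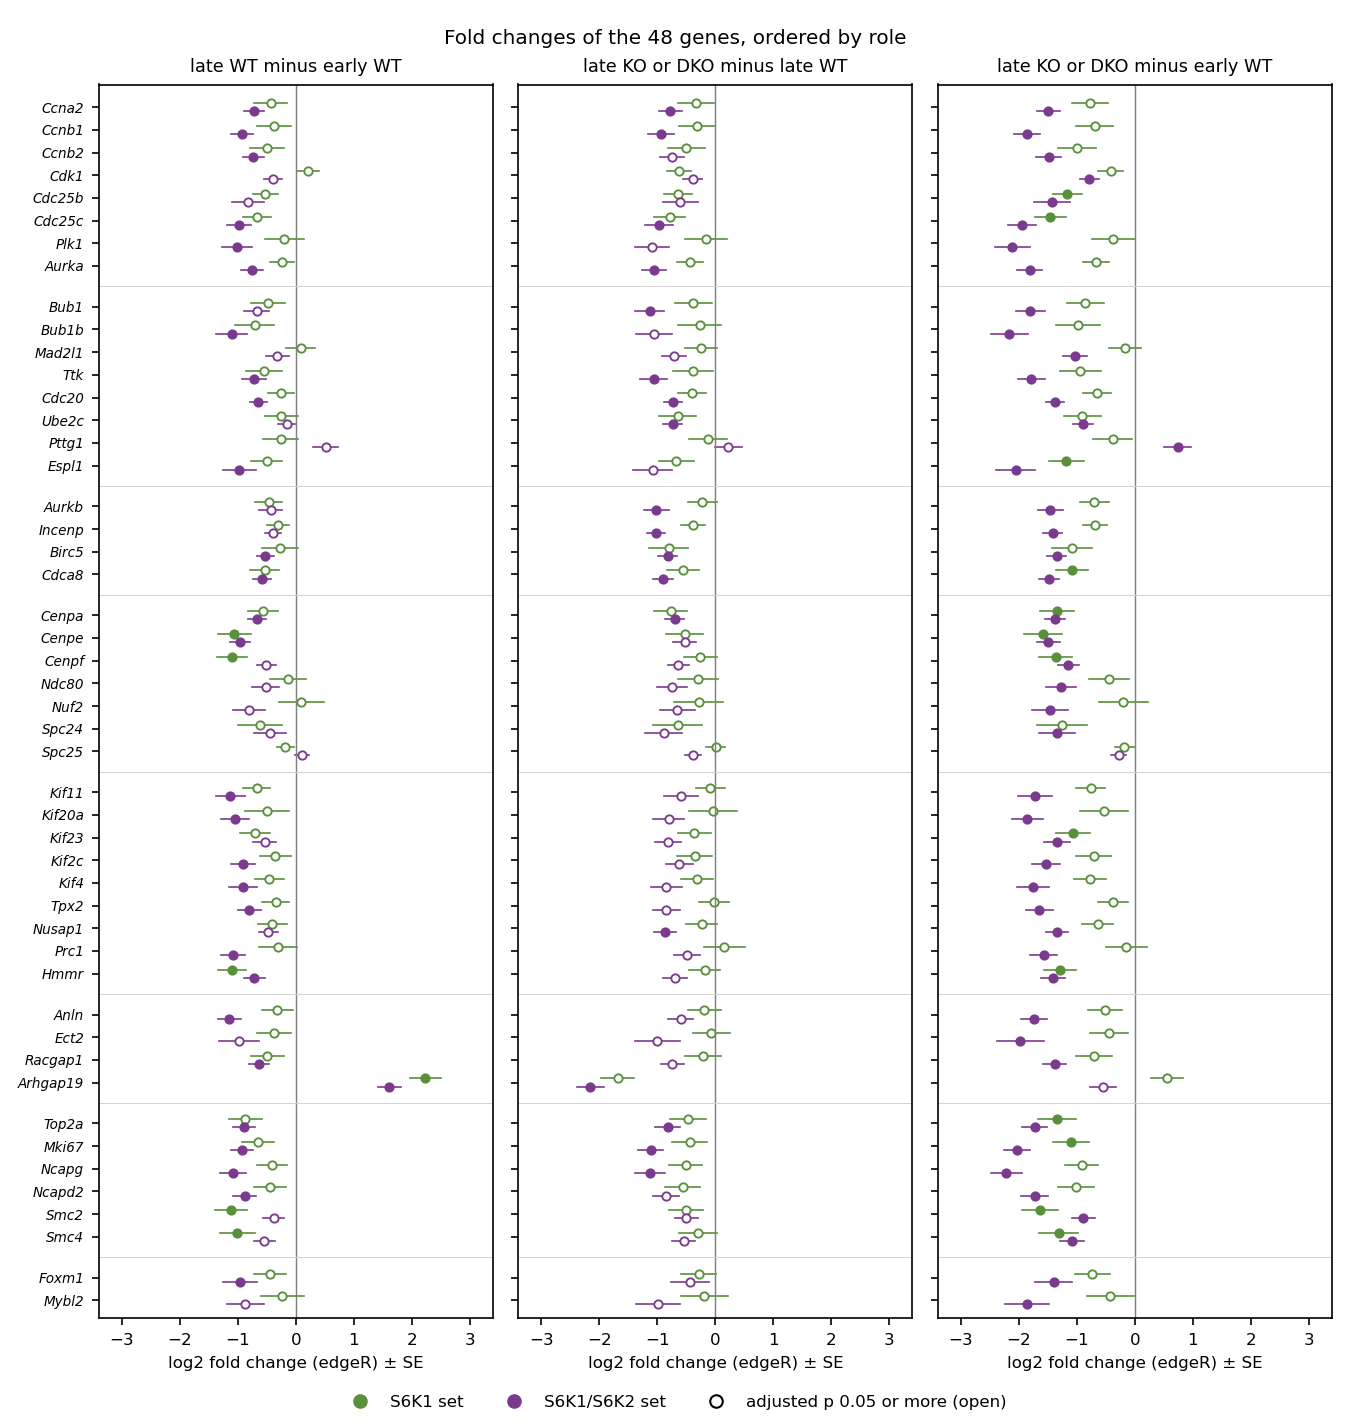
Log2 fold change ± SE (x axis) of each of the 48 genes (y axis, in blocks by role from mitotic entry at the top to transcription factors) in 3 comparisons, green for the S6K1 set and purple for the S6K1/S6K2 set. Filled points passed an adjusted p of 0.05. Purple points are filled in 28 falls with passage, 18 with genotype and 45 in DKO against early WT MEFs, and Arhgap19 lies far to the right for passage and far to the left for genotype in both sets.

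The group means fell from early WT to late WT to DKO in 45 of the 48 genes, all but Pttg1, Spc25 and Arhgap19, against 23.1% of all genes. In the S6K1 set they fell from early WT to late WT to KO in 42, all but Cdk1, Mad2l1, Nuf2, Spc25, Prc1 and Arhgap19, against 24.3% of all genes. The effects of the 2 sets, which share no library, can be set side by side. Both passage effects were negative in 42 of the 48 genes, beside 36.2% of the 13898 genes tested in both sets, and 2 genes, Cenpe and Hmmr, fell past the threshold in both, which is 40% of the 5 that fell in the S6K1 set and 7.14% of the 28 in the other. Without SG03 and SG05 neither was called in the S6K1 set, so 0 were shared. Both genotype effects were negative in 45, beside 28.6% of genes. Across the 48 genes the passage effects had a Pearson r of 0.65, which was 0.18 without Arhgap19, and the genotype effects one of 0.53, which was 0.21 without it. The points share the libraries of each set, and apart from Arhgap19 the size of a gene's fall in one set said little about its fall in the other.

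**Figure D4:**
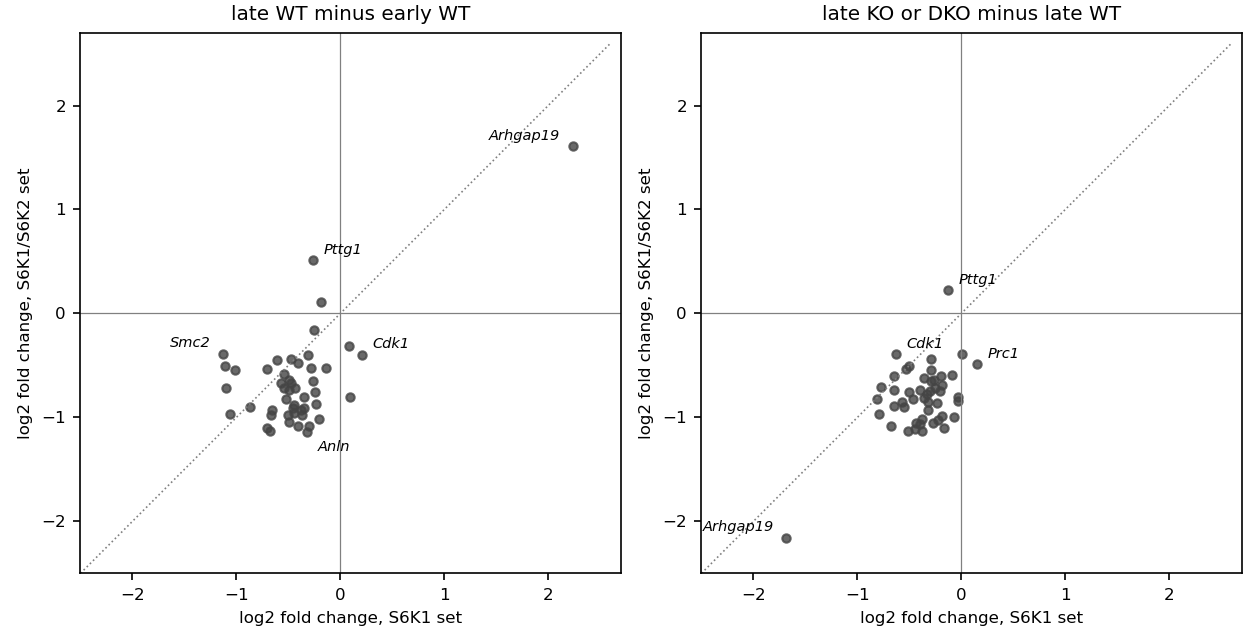
Log2 fold change of each of the 48 genes in the S6K1/S6K2 set (y axis) against the S6K1 set (x axis), for passage in WT MEFs (left) and for genotype at passage 8 (right), with a dotted line of equal change. In 37 genes for passage and 43 for genotype the point lies below the line, towards the lower value in the S6K1/S6K2 set, and Arhgap19 lies far from the cloud in both panels.

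No difference between the sets passed the test for any of the 48 genes, by edgeR or by DESeq2, beside 0.712% of 14886 genes for passage and 0.00672% for genotype. At an unadjusted p under 0.05, 2 of the 48 differed for passage and 3 for genotype, beside 1421 and 1626 of all 14886 genes. The smallest p-values for passage were those of Cdk1 (S6K1/S6K2 minus S6K1 −0.64 ± 0.25, 95% confidence interval −1.17 to −0.11, edgeR adjusted p = 0.394) and Anln (−0.86 ± 0.35, 95% confidence interval −1.58 to −0.14, edgeR adjusted p = 0.417). For genotype they were those of Incenp (−0.63 ± 0.26, 95% confidence interval −1.16 to −0.09, edgeR adjusted p = 0.398) and Aurkb (−0.78 ± 0.34, 95% confidence interval −1.49 to −0.08, edgeR adjusted p = 0.419). These intervals lie below 0, but they are not adjusted for the number of genes and belong to the smallest p-values of the 48. None passed after adjustment, so the larger counts of falls in the S6K1/S6K2 set are not shown to be a difference between the sets.

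Of the 8 genes of mitotic entry, 6 fell with passage in the S6K1/S6K2 set. Counts by role here and below stand beside these shares of all genes. In that set 4.89% were lower for passage, 3.95% for DKO against late WT and 8.92% for DKO against early WT MEFs. Higher were 8.28% for passage and 9.34% for DKO against early WT MEFs. In the S6K1 set 5.97% were lower for passage and 5.24% for KO against early WT MEFs. DKO MEFs had lower levels than late WT MEFs in 4 (Ccna2, Ccnb1, Cdc25c and Aurka) and than early WT MEFs in 8. For passage in the S6K1 set 0 passed by edgeR and by DESeq2 (2 at an unadjusted p under 0.05, beside 3896 of all 14132 genes). Ccnb1 encodes cyclin B1, the partner that activates CDK1 at the start of mitosis. Its level in the S6K1/S6K2 set was 25.1, 22.1, 18.6 and 15.8 CPM in early WT, 12.3, 10.8, 7.85 and 11.7 in late WT and 5.23, 4.67 and 6.82 in DKO MEFs. Neighbouring groups did not overlap, so it fell at each step. For Ccnb1 the log2 fold change was −0.93 ± 0.20 for passage (edgeR adjusted p = 0.0102) and −0.93 ± 0.22 for genotype (edgeR adjusted p = 0.0353). Ccnb1 in the S6K1 set was at 30.03, 21.7, 34.2 and 15.4 CPM in early WT, 20.8, 16, 14.9 and 26.5 in late WT and 21.4, 15.6 and 10.1 in KO MEFs. There the 3 groups overlapped (−0.38 ± 0.29, edgeR adjusted p = 0.431 for passage).

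Ccna2 encodes cyclin A2, needed from S phase to early mitosis. It was at 54.5, 52.3, 43.8 and 29.8 CPM in early WT, 28.9, 28.4, 22.4 and 29.8 in late WT and 17, 15.2 and 15.7 in DKO MEFs in the S6K1/S6K2 set. The lowest early WT library, SG50, equalled the highest late WT library at this rounding, and the DKO libraries lay below all others. For Ccna2 the log2 fold change was −0.72 ± 0.17 for passage (edgeR adjusted p = 0.0189) and −0.78 ± 0.19 for genotype (edgeR adjusted p = 0.0421). Ccna2 in the S6K1 set was at 71.9, 81.2, 75.1 and 50.3 CPM in early WT, 48.6, 41.6, 36.3 and 79.5 in late WT and 51.9, 46.6 and 24.2 in KO MEFs. SG23 of the late WT stood with the early WT libraries (−0.44 ± 0.28, edgeR adjusted p = 0.341 for passage).

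Cdk1, the mitotic kinase itself, moved least of the 8 in the S6K1/S6K2 set. It was at 86.5, 78.5, 91.1 and 70.3 CPM in early WT, 55.2, 63.3, 71.5 and 58 in late WT and 46, 59.3 and 36.9 in DKO MEFs. For Cdk1 the log2 fold change was −0.40 ± 0.15 for passage (edgeR adjusted p = 0.0963) and −0.39 ± 0.16 for genotype (edgeR adjusted p = 0.223). Neither step passed, whereas both together did (−0.79 ± 0.16, edgeR adjusted p = 0.00824). Cdk1 in the S6K1 set was at 90.9, 130, 97.6 and 97.4 CPM in early WT, 145, 97.8, 91.2 and 147 in late WT and 92.4, 73.7 and 67.1 in KO MEFs. SG19 and SG23 of the late WT lay above every early WT library (0.21 ± 0.19, edgeR adjusted p = 0.519 for passage).

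Plk1, the polo-like kinase, acts from mitotic entry to cytokinesis. It was at 23.5, 21.9, 14.3 and 14.2 CPM in early WT, 8.35, 10.4, 5.89 and 11.9 in late WT and 4.28, 3.08 and 5.31 in DKO MEFs in the S6K1/S6K2 set. The groups did not overlap, and the fall passed for passage and missed the threshold for genotype. For Plk1 the log2 fold change was −1.02 ± 0.26 for passage (edgeR adjusted p = 0.0225) and −1.10 ± 0.29 for genotype (edgeR adjusted p = 0.0539). Plk1 in the S6K1 set was at 19.6, 15.9, 25.6 and 15.1 CPM in early WT, 17.4, 9.92, 14.8 and 24.3 in late WT and 21.4, 15.9 and 6.97 in KO MEFs. All groups overlapped (−0.37 ± 0.36, edgeR adjusted p = 0.537 for KO against early WT).

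Aurka encodes Aurora A, the kinase of the spindle poles. It was at 27.6, 30.7, 29.3 and 22.6 CPM in early WT, 14.8, 14.8, 14.4 and 21.2 in late WT and 9.17, 5.56 and 8.72 in DKO MEFs in the S6K1/S6K2 set and fell at both steps. For Aurka the log2 fold change was −0.76 ± 0.18 for passage (edgeR adjusted p = 0.0197) and −1.06 ± 0.21 for genotype (edgeR adjusted p = 0.0157). Aurka in the S6K1 set was at 32.9, 32.1, 40.6 and 27 CPM in early WT, 29.6, 22.9, 23.7 and 36.1 in late WT and 26.8, 20.3 and 15.1 in KO MEFs. The groups overlapped, and SG27 was the lowest (−0.43 ± 0.23, edgeR adjusted p = 0.541 for KO against late WT). The other 3 genes were Ccnb2, encoding cyclin B2, and Cdc25b and Cdc25c, encoding phosphatases that activate CDK1. They fell by 1.43 to 1.95 on the log2 scale from early WT to DKO MEFs. In KO against early WT MEFs Cdc25b (−1.17 ± 0.25, edgeR adjusted p = 0.0132) and Cdc25c (−1.46 ± 0.27, edgeR adjusted p = 0.00742) were the 2 of the 8 that passed.

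**Figure D5:**
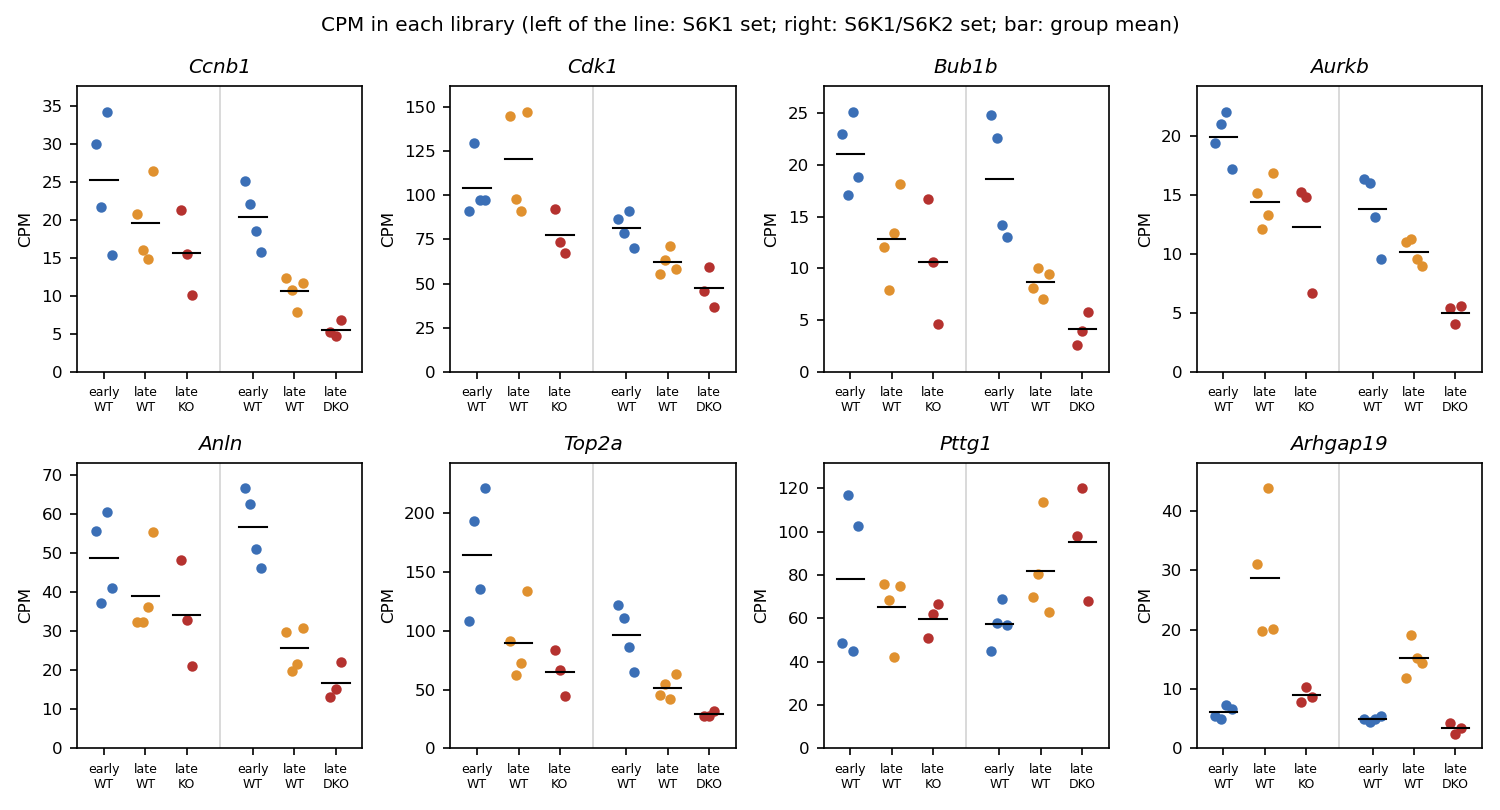
CPM of 8 of the 48 genes in each library (points) with group means (bars), in the S6K1 set (left of the line) and the S6K1/S6K2 set (right), each on its own linear axis from 0. In the S6K1/S6K2 set the means of Ccnb1, Bub1b, Aurkb, Anln and Top2a step down, Cdk1 declines least, and that of Pttg1 goes up, while Arhgap19 is high in late WT MEFs alone in both sets.

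Among the 8 genes of the spindle checkpoint and of anaphase, 4 fell with passage in the S6K1/S6K2 set (Bub1b, Ttk, Cdc20 and Espl1). In DKO MEFs 4 were lower than in late WT MEFs (Bub1, Ttk, Cdc20 and Ube2c), and 7 were lower and 1 higher than in early WT MEFs. For passage in the S6K1 set 0 passed by edgeR and by DESeq2 (0 at an unadjusted p under 0.05, beside 3896 of all 14132 genes). In KO against early WT MEFs 1 of the 8 passed (12.5%, beside 5.24% of all genes). It was Espl1, the gene of separase, which cuts the cohesin between sister chromatids (−1.18 ± 0.30, edgeR adjusted p = 0.0279). Cdc20 activates the anaphase-promoting complex. It was at 50.2, 43.9, 44.6 and 39.7 CPM in early WT, 23.9, 26.3, 26.4 and 37.4 in late WT and 16.4, 18.1 and 17.1 in DKO MEFs in the S6K1/S6K2 set, in 3 groups without overlap. For Cdc20 the log2 fold change was −0.65 ± 0.14 for passage (edgeR adjusted p = 0.0122) and −0.73 ± 0.16 for genotype (edgeR adjusted p = 0.0228). Cdc20 in the S6K1 set was at 61.6, 59.96, 64.7 and 58.7 CPM in early WT, 55.9, 36.8, 38 and 74.1 in late WT and 46.4, 41.6 and 28.5 in KO MEFs. SG23 was the highest of all 11 libraries (−0.26 ± 0.22, edgeR adjusted p = 0.489 for passage).

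Bub1b encodes BUBR1, which holds CDC20 in check until all kinetochores are attached. It was at 24.8, 22.6, 14.2 and 13 CPM in early WT, 8.1, 10.1, 7.02 and 9.49 in late WT and 2.57, 3.97 and 5.81 in DKO MEFs in the S6K1/S6K2 set, and neighbouring groups did not overlap. For Bub1b the log2 fold change was −1.11 ± 0.27 for passage (edgeR adjusted p = 0.0191) and −1.06 ± 0.31 for genotype (edgeR adjusted p = 0.0758). Bub1b in the S6K1 set was at 23, 17.1, 25.1 and 18.8 CPM in early WT, 12.1, 7.89, 13.4 and 18.1 in late WT and 16.7, 10.6 and 4.6 in KO MEFs. The KO libraries overlapped the late WT range, and SG27 lay below it (−0.71 ± 0.34, edgeR adjusted p = 0.197 for passage).

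Ube2c encodes the ubiquitin-conjugating enzyme of the anaphase-promoting complex. It was at 43.9, 39.8, 50.04 and 36.1 CPM in early WT, 33.8, 35.2, 48.9 and 34.3 in late WT and 25.5, 22.8 and 20.2 in DKO MEFs in the S6K1/S6K2 set. The DKO libraries lay below all others, and SG59 of the late WT stood with the highest early WT library. For Ube2c the log2 fold change was −0.16 ± 0.15 for passage (edgeR adjusted p = 0.501) and −0.74 ± 0.17 for genotype (edgeR adjusted p = 0.0268). Ube2c in the S6K1 set was at 61.2, 110, 70.7 and 104 CPM in early WT, 78.4, 57.4, 46.2 and 108 in late WT and 58.6, 47.7 and 32.2 in KO MEFs. SG03 and SG05 of the early WT and SG23 of the late WT were the highest (−0.65 ± 0.31, edgeR adjusted p = 0.495 for KO against late WT). Bub1, the checkpoint kinase with the largest fall with genotype after Arhgap19, was at 24.5, 19.9, 17.9 and 14.4 CPM in early WT, 10.3, 10.8, 9.74 and 17.2 in late WT and 5.31, 4.77 and 6.32 in DKO MEFs in the S6K1/S6K2 set. SG60 of the late WT lay above the lowest early WT library (−0.67 ± 0.22, edgeR adjusted p = 0.0591 for passage).

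Pttg1 encodes securin, the inhibitor that the anaphase-promoting complex destroys to free separase, and it did not follow its neighbours. It was at 45, 58.1, 68.8 and 56.8 CPM in early WT, 69.8, 80.6, 114 and 62.8 in late WT and 98.3, 120 and 68.1 in DKO MEFs in the S6K1/S6K2 set. Groups overlapped, yet DKO MEFs passed as higher than early WT MEFs (0.74 ± 0.23, edgeR adjusted p = 0.0424). That call was lost without any one of 7 of the 11 libraries (SG46, SG47, SG50, SG57, SG58, SG61 and SG62) and in a fit of all 6 groups. Pttg1 in the S6K1 set was at 48.7, 117, 44.9 and 103 CPM in early WT, 76, 68.3, 42.3 and 74.9 in late WT and 51.2, 61.9 and 66.6 in KO MEFs. The high early WT libraries were again SG03 and SG05 (−0.38 ± 0.33, edgeR adjusted p = 0.472 for KO against early WT).

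The chromosomal passenger complex corrects wrong attachments and later guides cytokinesis, and all 4 of its genes passed as lower in DKO than in late WT MEFs. Aurkb encodes its kinase, Aurora B. It was at 16.4, 16.1, 13.2 and 9.62 CPM in early WT, 11, 11.3, 9.59 and 8.96 in late WT and 5.4, 4.07 and 5.56 in DKO MEFs in the S6K1/S6K2 set, so that late WT libraries overlapped with SG50 of the early WT and DKO libraries lay apart. For Aurkb the log2 fold change was −0.44 ± 0.19 for passage (edgeR adjusted p = 0.144) and −1.02 ± 0.22 for genotype (edgeR adjusted p = 0.0216). Aurkb in the S6K1 set was at 19.4, 21, 22.1 and 17.2 CPM in early WT, 15.2, 12.1, 13.4 and 16.9 in late WT and 15.3, 14.9 and 6.68 in KO MEFs. SG24 and SG25 of the KO lay within the late WT range and SG27 far below it (−0.23 ± 0.25, edgeR adjusted p = 0.797 for KO against late WT).

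Incenp, the scaffold that binds and activates Aurora B, was at 40.6, 38.2, 31.7 and 29.8 CPM in early WT, 26, 27.3, 22.7 and 30.2 in late WT and 11.6, 13.4 and 14.3 in DKO MEFs in the S6K1/S6K2 set. As for Aurkb, only the second step passed. For Incenp the log2 fold change was −0.40 ± 0.14 for passage (edgeR adjusted p = 0.0719) and −1.02 ± 0.15 for genotype (edgeR adjusted p = 0.00519). Incenp and Arhgap19 were the 2 of the 18 genes lower in DKO than in late WT MEFs whose call was kept under every alternative setting and without any single library.

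Birc5, encoding the passenger survivin, was at 48.9, 49.2, 57 and 44.4 CPM in early WT, 28.6, 34, 42.7 and 33 in late WT and 21.5, 21.3 and 16 in DKO MEFs in the S6K1/S6K2 set and fell at both steps. For Birc5 the log2 fold change was −0.53 ± 0.14 for passage (edgeR adjusted p = 0.0330) and −0.82 ± 0.16 for genotype (edgeR adjusted p = 0.0152). Both calls were lost in a fit of all 6 groups. The call for passage was also lost without any one of 6 of the 11 libraries, and that for genotype without SG62 or SG64. Birc5 in the S6K1 set was at 54.5, 111, 61.5 and 102 CPM in early WT, 78.1, 51.5, 38.5 and 103 in late WT and 44.4, 41.3 and 30.3 in KO MEFs. SG03 and SG05 of the early WT and SG23 of the late WT were high, and the KO libraries lay below every WT library other than SG22 (−0.81 ± 0.34, edgeR adjusted p = 0.436 for KO against late WT).

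Of 7 kinetochore genes, 2 fell with passage in each set, Cenpe and Cenpf in the S6K1 set and Cenpa and Cenpe in the S6K1/S6K2 set. Without SG03 and SG05 the count in the S6K1 set was 0. In KO MEFs 3, Cenpa, Cenpe and Cenpf, were lower than in early WT MEFs, and again 0 without SG03 and SG05. In DKO MEFs 1, Cenpa, was lower than in late WT MEFs (14.3%, beside 3.95% of all genes). Against early WT MEFs 6 were lower in DKO MEFs (85.7%, beside 8.92%). Cenpa encodes the histone H3 variant that marks the centromere. It was at 51.7, 49.6, 45.7 and 36.1 CPM in early WT, 26.8, 34.6, 29.9 and 23.7 in late WT and 18.2, 19.1 and 15.7 in DKO MEFs in the S6K1/S6K2 set, with no overlap between the groups. For Cenpa the log2 fold change was −0.67 ± 0.15 for passage (edgeR adjusted p = 0.0121) and −0.70 ± 0.16 for genotype (edgeR adjusted p = 0.0314). Cenpa in the S6K1 set was at 54, 94.2, 62.2 and 70.3 CPM in early WT, 42.6, 37.9, 35.3 and 73.2 in late WT and 32.4, 30.4 and 20.1 in KO MEFs. Every KO library lay below every WT library (−1.34 ± 0.29, edgeR adjusted p = 0.0132 for KO against early WT).

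Ndc80, the microtubule-binding subunit of the NDC80 complex, was at 20.5, 14.9, 13.1 and 13.5 CPM in early WT, 10.9, 13.5, 6.95 and 11.7 in late WT and 5.14, 5.86 and 8.15 in DKO MEFs in the S6K1/S6K2 set. For Ndc80 the log2 fold change was −0.52 ± 0.23 for passage (edgeR adjusted p = 0.145) and −1.27 ± 0.26 for DKO against early WT (edgeR adjusted p = 0.00749). Early WT and late WT MEFs overlapped. Ndc80 in the S6K1 set was at 23.8, 18.3, 26.2 and 12.7 CPM in early WT, 18, 15.5, 13.2 and 27.3 in late WT and 20.9, 15.6 and 8.23 in KO MEFs, and no group stood apart (−0.14 ± 0.31, edgeR adjusted p = 0.823 for passage). The 4 subunits of this complex were not alike. From early WT to DKO MEFs Ndc80, Nuf2 and Spc24 fell by 1.27 to 1.46 on the log2 scale. Spc25, the partner of Spc24, was at 25.5, 26.3, 28.7 and 23.6 CPM in early WT, 29.4, 32.6, 24.5 and 25.5 in late WT and 19.4, 21.3 and 23.4 in DKO MEFs, a lower value in DKO MEFs that did not pass (−0.28 ± 0.14, edgeR adjusted p = 0.168).

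Cenpe, a motor that carries chromosomes to the spindle equator, was at 43, 85.8, 51.8 and 81 CPM in early WT, 32.7, 25.5, 19.96 and 47.5 in late WT and 26.5, 22.2 and 16.4 in KO MEFs in the S6K1 set. Early WT libraries split into SG03 and SG05, which were high, and the other 2, which lay near SG23 of the late WT (−1.06 ± 0.29, edgeR adjusted p = 0.0332 for passage). That call was lost without SG03 and SG05, without any one of 7 of the 11 libraries and in a fit of early WT and late WT MEFs alone.

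All 9 spindle genes were lower in DKO than in early WT MEFs, and 7 fell with passage in that set. Against late WT MEFs 1 of the 9 passed (11.1%, beside 3.95% of all genes). It was Nusap1, which bundles microtubules (−0.87 ± 0.19, edgeR adjusted p = 0.0228). Kif11 was at 33.4, 24.4, 18.4 and 14.6 CPM in early WT, 11.2, 9.27, 7.7 and 13.3 in late WT and 5.83, 6.36 and 8.34 in DKO MEFs in the S6K1/S6K2 set, and early WT and late WT MEFs did not overlap. For Kif11 the log2 fold change was −1.13 ± 0.26 for passage (edgeR adjusted p = 0.0141) and −0.59 ± 0.29 for genotype (edgeR adjusted p = 0.296). Kif11 in the S6K1 set was at 26.9, 25.2, 30.6 and 27.6 CPM in early WT, 14.3, 14.3, 14.4 and 26.3 in late WT and 20.8, 16.4 and 11.5 in KO MEFs. SG23 of the late WT stood apart, within the early WT range, and the other late WT libraries were close to each other (−0.67 ± 0.23, edgeR adjusted p = 0.0766 for passage).

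Tpx2, which recruits Aurora A to the spindle, was at 68.9, 62.9, 49.2 and 45.9 CPM in early WT, 30.7, 31.6, 23.3 and 44.6 in late WT and 14.4, 17.5 and 22.3 in DKO MEFs in the S6K1/S6K2 set. No 2 groups overlapped, and the first step passed alone. For Tpx2 the log2 fold change was −0.80 ± 0.21 for passage (edgeR adjusted p = 0.0250) and −0.85 ± 0.23 for genotype (edgeR adjusted p = 0.0572). Tpx2 in the S6K1 set was at 73.4, 50.8, 77.8 and 43.1 CPM in early WT, 50.3, 34.9, 45.3 and 62.3 in late WT and 60.9, 44 and 36.9 in KO MEFs. KO and late WT MEFs overlapped (−0.03 ± 0.26, edgeR adjusted p = 0.982 for KO against late WT).

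Kif23, a motor of the central spindle, was at 36, 28.9, 27.6 and 24.4 CPM in early WT, 18.1, 18.3, 24.7 and 19.6 in late WT and 7.37, 12.4 and 14.5 in DKO MEFs in the S6K1/S6K2 set. Only SG59 of the late WT reached the early WT range. For Kif23 the log2 fold change was −0.54 ± 0.20 for passage (edgeR adjusted p = 0.0923) and −1.35 ± 0.23 for DKO against early WT (edgeR adjusted p = 0.00252). Kif23 in the S6K1 set was at 39.4, 63.2, 45.9 and 63.7 CPM in early WT, 39.6, 23.4, 21.7 and 45.5 in late WT and 29.6, 26.9 and 19.2 in KO MEFs. SG03 and SG05 were the highest (−1.07 ± 0.29, edgeR adjusted p = 0.0347 for KO against early WT), and without them the call was lost.

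Hmmr encodes a protein of the spindle poles and fell with passage in both sets. It was at 34.4, 51.8, 43.4 and 43.9 CPM in early WT, 21.8, 18.1, 13.2 and 27.7 in late WT and 23.7, 17 and 12.5 in KO MEFs in the S6K1 set, where no late WT library reached the early WT range (−1.10 ± 0.25, edgeR adjusted p = 0.0119 for passage). Of the 6 genes that passed for passage in that set, Hmmr and Arhgap19 were called without each single library. Without SG03 and SG05 together Hmmr missed the threshold. Hmmr in the S6K1/S6K2 set fell less (−0.72 ± 0.18, edgeR adjusted p = 0.0242), and that call was lost without SG46, SG47 or SG58.

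Of the 4 genes of cytokinesis, 2 fell and 1 rose with passage in the S6K1/S6K2 set, and 3, Anln, Ect2 and Racgap1, were lower in DKO than in early WT MEFs. Anln was at 66.7, 62.6, 51.2 and 46.3 CPM in early WT, 29.9, 19.9, 21.7 and 31 in late WT and 13.1, 15.2 and 22.2 in DKO MEFs in that set. Early WT and late WT MEFs did not overlap, and SG64 of the DKO lay inside the late WT range. For Anln the log2 fold change was −1.15 ± 0.20 for passage (edgeR adjusted p = 0.00355) and −0.60 ± 0.22 for genotype (edgeR adjusted p = 0.162). Anln in the S6K1 set was at 55.8, 37.4, 60.7 and 41.3 CPM in early WT, 32.4, 32.5, 36.2 and 55.4 in late WT and 48.3, 33 and 21.2 in KO MEFs. Those groups overlapped (−0.32 ± 0.26, edgeR adjusted p = 0.467 for passage).

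Racgap1, the partner of KIF23 in centralspindlin, was at 43.1, 40.04, 34 and 28.2 CPM in early WT, 23.8, 26, 17 and 26.6 in late WT and 12.4, 12.8 and 16.5 in DKO MEFs in the S6K1/S6K2 set. No 2 groups overlapped. For Racgap1 the log2 fold change was −0.64 ± 0.18 for passage (edgeR adjusted p = 0.0334) and −0.74 ± 0.20 for genotype (edgeR adjusted p = 0.0514). Racgap1 in the S6K1 set was at 45.5, 43.5, 57.4 and 30.6 CPM in early WT, 29.5, 21.7, 29.5 and 45.1 in late WT and 37.1, 29 and 15.6 in KO MEFs. SG27 was the lowest and SG04 the highest (−0.50 ± 0.29, edgeR adjusted p = 0.287 for passage).

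Arhgap19 encodes a GTPase-activating protein for RhoA and was the one gene of the 48 that rose with passage. It was at 5.53, 4.97, 7.23 and 6.69 CPM in early WT, 31.1, 19.8, 43.8 and 20.2 in late WT and 7.9, 10.3 and 8.6 in KO MEFs in the S6K1 set. Every late WT library lay above every other library. The level rose 4.71-fold with passage (2.24 ± 0.26, edgeR adjusted p = 0.00021). KO MEFs were 3.21-fold lower than late WT MEFs, which missed the threshold by edgeR (−1.68 ± 0.28, edgeR adjusted p = 0.0749) and passed by DESeq2. Arhgap19 in the S6K1/S6K2 set was at 4.88, 4.46, 5.03 and 5.48 CPM in early WT, 11.8, 19.2, 15.3 and 14.5 in late WT and 4.2, 2.48 and 3.47 in DKO MEFs. Again it was high in late WT MEFs alone. The rise was 3.06-fold (1.61 ± 0.20, edgeR adjusted p = 0.000786), and DKO MEFs were 4.46-fold lower than late WT MEFs (−2.16 ± 0.23, edgeR adjusted p = 0.00135).

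The summed macrophage markers were also highest in the late WT libraries of both sets. They were at 11097, 5331, 9435 and 6210 CPM in late WT and 3549, 4221 and 4843 CPM in KO MEFs of the S6K1 set. The other set had 9598, 13280, 11162 and 7769 CPM in late WT and 3514, 1083 and 943 CPM in DKO MEFs. The part of these cells in the level of Arhgap19 was not tested.

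In chromosome structure, 4 of 6 genes fell with passage in the S6K1/S6K2 set (Top2a, Mki67, Ncapg and Ncapd2). In DKO MEFs 3 were lower than in late WT MEFs (Top2a, Mki67 and Ncapg) and 6 lower than in early WT MEFs. In KO MEFs 4 were lower than in early WT MEFs (Top2a, Mki67, Smc2 and Smc4). Without SG03 and SG05 together that count was 1, Smc2, and the other 3 were also lost without either of these libraries alone. Top2a encodes the topoisomerase that untangles sister chromatids. It was at 122, 111, 86.4 and 65.4 CPM in early WT, 45.7, 55, 41.6 and 63.5 in late WT and 27.8, 27.5 and 31.7 in DKO MEFs in the S6K1/S6K2 set, and no 2 groups overlapped. For Top2a the log2 fold change was −0.90 ± 0.19 for passage (edgeR adjusted p = 0.00989) and −0.83 ± 0.21 for genotype (edgeR adjusted p = 0.0445). Top2a in the S6K1 set was at 109, 194, 136 and 221 CPM in early WT, 91, 62.7, 72.4 and 134 in late WT and 83.9, 66.6 and 44.4 in KO MEFs. SG03 and SG05 were the highest (−1.34 ± 0.32, edgeR adjusted p = 0.0211 for KO against early WT).

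Mki67 encodes Ki-67, the proliferation antigen that coats mitotic chromosomes. It was at 90.1, 82, 64.5 and 49 CPM in early WT, 29.4, 46.5, 34.5 and 40.1 in late WT and 17.1, 15.3 and 19.6 in DKO MEFs in the S6K1/S6K2 set, again in 3 groups without overlap. For Mki67 the log2 fold change was −0.92 ± 0.19 for passage (edgeR adjusted p = 0.00952) and −1.11 ± 0.22 for genotype (edgeR adjusted p = 0.0147). Mki67 in the S6K1 set was at 70.3, 108, 96.8 and 104 CPM in early WT, 61.8, 42, 40.6 and 95.8 in late WT and 56.2, 45.5 and 30.9 in KO MEFs. SG23 of the late WT lay in the early WT range (−1.10 ± 0.31, edgeR adjusted p = 0.0404 for KO against early WT).

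Ncapd2, a subunit of condensin I, was at 54.4, 55.9, 42.4 and 36.1 CPM in early WT, 23.3, 26.7, 19.3 and 33.2 in late WT and 11, 13.8 and 17.8 in DKO MEFs in the S6K1/S6K2 set. The groups did not overlap. For Ncapd2 the log2 fold change was −0.88 ± 0.20 for passage (edgeR adjusted p = 0.0148) and −0.85 ± 0.23 for genotype (edgeR adjusted p = 0.0532). Ncapd2 in the S6K1 set was at 49.2, 43.2, 55.4 and 45.3 CPM in early WT, 28.2, 25.2, 33.4 and 54.8 in late WT and 30.9, 27.7 and 13 in KO MEFs. SG23 again lay with the early WT libraries (−1.02 ± 0.31, edgeR adjusted p = 0.0549 for KO against early WT).

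Smc2, the core subunit of both condensins, was at 87.5, 199, 101 and 199 CPM in early WT, 62.4, 62.4, 51.2 and 92.1 in late WT and 50.1, 49 and 42.4 in KO MEFs in the S6K1 set. SG03 and SG05 lay far above every other library. The log2 fold change for passage was −1.13 with them and −0.49 without them, and the latter did not pass. Its difference with passage in the S6K1/S6K2 set did not pass (−0.39 ± 0.18, edgeR adjusted p = 0.170), although Ncapg, another condensin subunit gene, fell there (−1.08 ± 0.22, edgeR adjusted p = 0.00834).

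The 2 transcription factors drive the programme itself. Foxm1 was at 16, 15.8, 11.2 and 8.55 CPM in early WT, 7.48, 5.92, 4.68 and 8.36 in late WT and 3.00, 4.67 and 6.89 in DKO MEFs in the S6K1/S6K2 set. It fell with passage, while the difference with genotype did not pass. The call for passage was lost with a Y-linked covariate and without any one of 7 of the 11 libraries. For Foxm1 the log2 fold change was −0.96 ± 0.29 for passage (edgeR adjusted p = 0.0449) and −0.44 ± 0.32 for genotype (edgeR adjusted p = 0.519). Foxm1 in the S6K1 set was at 14.1, 12.8, 16.7 and 15.4 CPM in early WT, 10.5, 6.72, 10.6 and 15.6 in late WT and 12.4, 8.96 and 5.27 in KO MEFs. SG23 lay in the early WT range (−0.44 ± 0.28, edgeR adjusted p = 0.328 for passage).

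Mybl2, the gene of B-MYB, was at 3.7, 3.9, 2.94 and 2.6 CPM in early WT, 1.68, 1.5, 1.13 and 2.85 in late WT and 1.11, 0.695 and 0.884 in DKO MEFs in the S6K1/S6K2 set. For Mybl2 the log2 fold change was −0.87 ± 0.32 for passage (edgeR adjusted p = 0.0921) and −0.99 ± 0.38 for genotype (edgeR adjusted p = 0.184). Neither step passed, and both together did (−1.86 ± 0.38, edgeR adjusted p = 0.00754). Mybl2 in the S6K1 set was at 4.69, 3.07, 6.19 and 3.13 CPM in early WT, 3.83, 1.95, 3.08 and 5.73 in late WT and 4.53, 2.95 and 2.08 in KO MEFs. The groups overlapped (−0.24 ± 0.37, edgeR adjusted p = 0.726 for passage).

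Other genes of the cell cycle were counted from lists for comparison. Of 76 further mitotic genes, 18 (23.7%, beside 4.89% of all genes) fell and 1, Gtse1, rose with passage in the S6K1/S6K2 set. In DKO MEFs 10 (13.2%, beside 3.95%) were lower than in late WT and 57 (75%, beside 8.92%) lower than in early WT MEFs. In the S6K1 set 4 fell with passage (Knl1, Cdca2 and Kif20b among them), a share of 5.26% that lay below the 5.97% of all genes. There 0 passed for genotype by edgeR. At an unadjusted p under 0.05 the count for genotype was 11, beside 1499 of all 14132 genes. In KO MEFs 15 (19.7%, beside 5.24%) were lower than in early WT MEFs. Without SG03 and SG05, 0 of these 4 and 1 of these 15 were called, while 3 others fell with passage (Cenpt, Cks2 and Zwilch). Among genes that passed, the largest falls with passage in the S6K1/S6K2 set were those of Depdc1a (−1.40 ± 0.35, edgeR adjusted p = 0.0210) and Troap, a spindle protein (−1.24 ± 0.36, edgeR adjusted p = 0.0424). With genotype they were those of Lmnb1, encoding lamin B1 (−1.23 ± 0.30, edgeR adjusted p = 0.0399), and Spdl1, an adaptor of dynein at kinetochores (−1.14 ± 0.16, edgeR adjusted p = 0.00428). From early WT to DKO MEFs they were those of Troap (−2.47 ± 0.44, edgeR adjusted p = 0.00380) and the kinetochore gene Nsl1 (−2.36 ± 0.55, edgeR adjusted p = 0.0129). For passage in the S6K1 set they were Cdca2 (−1.11 ± 0.27, edgeR adjusted p = 0.0185) and Kif20b (−1.09 ± 0.27, edgeR adjusted p = 0.0201). For KO against early WT MEFs the largest was that of Hmgb2, a chromatin protein (−1.75 ± 0.41, edgeR adjusted p = 0.0184).

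Of 36 DNA replication genes, 3 (8.33%, beside 4.89% of all genes) fell with passage in the S6K1/S6K2 set (Pold1, Uhrf1 and Tyms) and 10 (27.8%, beside 3.95%) were lower in DKO than in late WT MEFs. Their medians were −0.30 and −0.67 for these steps. Among genes that passed, the larger falls with passage were those of Pold1, a DNA polymerase subunit (−0.69 ± 0.19, edgeR adjusted p = 0.0306), and Uhrf1, which maintains DNA methylation (−0.64 ± 0.16, edgeR adjusted p = 0.0209). With genotype they were those of the replication licensing genes Gmnn (−1.45 ± 0.23, edgeR adjusted p = 0.00577) and Cdt1 (−1.40 ± 0.19, edgeR adjusted p = 0.00385). In DKO against early WT MEFs 27 (75%, beside 8.92%) were lower, with Mcm10 (−2.03 ± 0.36, edgeR adjusted p = 0.00348) and Tk1 (−1.90 ± 0.32, edgeR adjusted p = 0.00284) the largest. In the S6K1 set 0 of 36 passed for passage or genotype by edgeR. At an unadjusted p under 0.05 the counts were 3 and 4, beside 3896 and 1499 of all 14132 genes. There 4 (11.1%, beside 5.24%) were lower in KO than in early WT MEFs, Rfc4 (−1.11 ± 0.31, edgeR adjusted p = 0.0378) and Lig1 (−1.04 ± 0.29, edgeR adjusted p = 0.0396) most, with Pold1 and Chaf1b, and 0 without SG03 and SG05.

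Of 23 genes of DREAM, MuvB and E2F, 0 fell and 2 rose with passage in the S6K1/S6K2 set, Rb1, the retinoblastoma gene (0.63 ± 0.15, edgeR adjusted p = 0.0161), and E2f1 (0.43 ± 0.13, edgeR adjusted p = 0.0478). These are 8.70% of the list, close to the 8.28% of all genes that rose. At an unadjusted p under 0.05, 2 were lower, beside 2001 of all 14365 genes. In DKO MEFs 3 (13.0%, beside 3.95%) were lower than in late WT MEFs, with E2f2 (−2.56 ± 0.49, edgeR adjusted p = 0.0143) and E2f8 (−1.31 ± 0.32, edgeR adjusted p = 0.0356) the largest. Against early WT MEFs 6 (26.1%, beside 8.92%) were lower and 3 (13.0%, beside 9.34%) higher, and E2f2 (−1.66 ± 0.49, edgeR adjusted p = 0.0365) and E2f8 (−1.36 ± 0.32, edgeR adjusted p = 0.0129) again changed most. In the S6K1 set 0 of the 23 passed in any comparison by edgeR. At an unadjusted p under 0.05 the counts were 4 for passage, 2 for genotype and 3 for KO against early WT MEFs. Beside them stood 3896, 1499 and 4029 of all 14132 genes. Without SG03 and SG05, 2 of the 23 fell with passage, E2f5 and Mybl1.

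Of 10 cyclins and kinases of G0 and G1, 1, Ccng1, rose with passage in the S6K1/S6K2 set (0.62 ± 0.15, edgeR adjusted p = 0.0217), which is 10% beside 8.28% of all genes. In DKO against early WT MEFs 3 were higher and 2 lower (30% and 20%, beside 9.34% and 8.92%), with the largest rises in Ccnd1 (1.15 ± 0.26, edgeR adjusted p = 0.0129) and Ccnd2 (0.99 ± 0.24, edgeR adjusted p = 0.0156), the D-type cyclins of G1. Among 6 CDK inhibitor genes, 1 rose with passage in each set (16.7%, beside 6.96% and 8.28% of all genes). In KO against early WT MEFs 1 was higher and 1 lower (16.7% each, beside 5.93% and 5.24%). The lowest value there was that of Cdkn1c (−3.32). Without SG03 and SG05, 0 were called higher and 0 lower, beside 2.32% and 1.29% of all genes. In DKO against early WT MEFs 3 were higher (50%, beside 9.34%) and 0 lower. At an unadjusted p under 0.05, 1 was lower, beside 2370 of all 14365 genes. The lowest value there was that of Cdkn1b (−0.68). Cdkn2a, the locus of the CDK inhibitor p16 and of ARF that rises in senescent MEFs, rose with passage in both sets. It was at 199, 176, 117 and 262 CPM in early WT, 371, 590, 429 and 343 in late WT and 297, 314 and 531 in KO MEFs in the S6K1 set (1.20 ± 0.27, edgeR adjusted p = 0.0137). Every late WT library lay above every early WT library in both sets. Cdkn2a in the S6K1/S6K2 set was at 181, 198, 240 and 327 CPM in early WT, 432, 615, 630 and 353 in late WT and 777, 571 and 414 in DKO MEFs (1.10 ± 0.25, edgeR adjusted p = 0.0156).

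Cdkn1a, encoding p21, was higher in DKO than in early WT MEFs (0.66 ± 0.19, edgeR adjusted p = 0.0320) and not past the threshold for passage in the S6K1 set (0.05 ± 0.18, edgeR adjusted p = 0.893) or the other (0.47 ± 0.18, edgeR adjusted p = 0.0953). Its level in the S6K1/S6K2 set was 398, 469, 633 and 601 CPM in early WT, 830, 627, 861 and 596 in late WT and 894, 837 and 757 in DKO MEFs. All DKO libraries lay above all early WT libraries. Cdkn1a in the S6K1 set was at 662, 523, 513 and 581 CPM in early WT, 569, 630, 721 and 440 in late WT and 587, 727 and 835 in KO MEFs, and the groups overlapped.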

How the data were processed

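RNA-seq libraries of 22 MEF samples in 6 groups were analysed. The authors deposited 1 table of raw read counts per gene, made from single-end reads of a stranded poly(A) library. The submitters' processing notes name CASAVA, STAR 2.7.1a, DESeq2 1.28.1 and the mm10 build, whereas the study's methods name an earlier mouse build, TopHat and HTSeq, so the aligner and build behind the counts are not settled. Groups were taken from the sample labels. Each library held 10742454 to 17314832 counts.

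Counts were analysed per set of 11 libraries in R 4.3.3 with edgeR 4.0.16 (filterByExpr, TMM scaling, robust quasi-likelihood F test, Benjamini-Hochberg adjustment over all genes tested, threshold 0.05), with 1 fit for the 3 groups of a set and a fit of all 22 libraries for differences between sets. DESeq2 1.42.0, RLE scaling, no filter, fits of 2 groups or of all 6, a Y-linked covariate and leaving out each library were alternatives. Of 55401 identifiers, 32589 carried a symbol (97.0% of counts). Replicates were compared by chi-square over genes with at least 20 counts, and in all 30 pairs the statistic per degree of freedom was 20.6 or more, so no library was counted as a copy of another. Scores used log2 CPM with a prior count of 2. One gene of the list of further mitotic genes entered its counts and is not reported here. The fits were tested on simulated data.

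Members and lists were chosen with earlier results of these data known. Library values are given for 22 genes that cover the roles, for Arhgap19 and Pttg1, and in 1 set for Bub1, Incenp, Spc25, Cenpe, Hmmr and Smc2. Also named are the 2 largest changes in each direction among genes that passed in a comparison, genes that passed against the common direction, the 2 smallest p-values of each difference between sets, and the 2 largest changes of each companion list in a comparison. The other genes in the text were named after their values were seen, to account for counts and for the split among early WT libraries.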

Additional observations from a re-analysis of the deposited data

Results flagged for a closer look

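In 120 sets of 4 libraries, made for each group of 4 from the score and from the genes named by role or by the size of their change, the highest or lowest value was compared with the rest by its gap to the nearest other library over the whole range. In 4 of them the ratio was above Dixon's critical value, and chance flags about 1 in 20 such groups. SG23 of the S6K1 late WT stood above the others for Kif11, at 26.3 CPM against 14.3 to 14.4 CPM (ratio 0.992), and for Bub1, at 25.8 CPM against 14.4 to 15.5 CPM (ratio 0.873). In the S6K1/S6K2 late WT, SG60 stood above the others for Aurka, at 21.2 CPM against 14.4 to 14.8 CPM (ratio 0.927), and SG59 for Ube2c, at 48.9 CPM against 33.8 to 35.2 CPM (ratio 0.889).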

How the results depend on the processing

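Of the 48 genes, among those that fell with passage in the S6K1 set (5), a fit of early WT and late WT MEFs alone gave 2, a Y-linked covariate 13, leaving out SG03 and SG05 together 0, and leaving out each library in turn 1 to 12. For S6K1 KO against late WT MEFs (0), DESeq2, no filter on low counts, a fit of all 6 groups and the Y-linked covariate each gave 1. For S6K1 KO against early WT MEFs (13), DESeq2 gave 23, a fit of all 6 groups 24, leaving out SG03 and SG05 together 3, and leaving out each library 3 to 18. In the S6K1/S6K2 set, leaving out each library gave 12 to 38 falls with passage (28) and 2 to 21 genes lower in DKO than in late WT MEFs (18), for which DESeq2 gave 29 and a fit of all 6 groups 9. The gene higher in DKO than in early WT MEFs, Pttg1, was lost in the fit of all 6 groups (0) and under some left-out libraries (0 to 1), whereas 44 to 45 genes stayed lower. Leaving out SG03 and SG05 was chosen after seeing the data. The cause of these changes was not tested. Calls kept in every alternative and without any single library numbered 1 of 6 for passage in the S6K1 set (Arhgap19), 3 of 13 for KO against early WT (Cdc25b, Cdc25c and Smc2), 13 of 29 for passage in the S6K1/S6K2 set, 2 of 18 for DKO against late WT and 43 of 46 for DKO against early WT. The 13 kept for passage in the S6K1/S6K2 set were Ccnb1, Cdc25c, Cdc20, Cenpa, Cenpe, Kif11, Kif20a, Prc1, Anln, Arhgap19, Top2a, Mki67 and Ncapg. The score differences kept their sign and moved by less than their spread in every alternative. No paired analysis was possible because each library has a code of its own and the groups share no replicate number. Depth limits the rarest gene, Mybl2, most.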

Other observations

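Within groups most of the 48 genes varied together. The deviations of each gene from its group means, over the 11 libraries of a set, had a median Pearson r with those of the other genes that was 0.73 in the S6K1 set at its median over genes, with 42 genes above 0.5, and 0.55 in the S6K1/S6K2 set, with 27 above 0.5. The lowest were Arhgap19 (−0.25) and Pttg1 (−0.08) in the S6K1 set. In the S6K1/S6K2 set they were Pttg1 (−0.42), Birc5 (−0.16), Ube2c (−0.16), Arhgap19 (−0.14) and Cdk1 (−0.10). Genes outside the list were not measured in this way. Libraries, depth and scaling are shared by these points, so the values are a description.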
